A study of Mus musculus with 12 samples.

Results

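Livers with an active human alpha1-antitrypsin transgene were compared with livers in which the same transgene was silent, over 2 mouse lines at once. All 12 arrays of the series took part, 6 with the transgene on and 6 with it off, and they were chosen by their titles. The mice were males of 6 weeks. Z mice carried the mutant and M mice the wild-type form of the human protein, each under inducible control and expressed in the liver only. The off mice drank water with doxycycline at 40 µg/mL from conception on, so that the transgene stayed silent, and the on mice were given none. Each of the groups Z on, Z off, M on and M off held 3 biological replicates, with 1 Affymetrix mouse array each. The absence of doxycycline and the presence of the human protein therefore cannot be told apart. No probe set was named for the human transcript in the annotation used, so the switch itself was not measured here. On minus off differences on the log2 scale came from limma with line as a factor, over the 7083 of 22626 probe sets whose mean signal was 100 or more, with an adjusted p under 0.05 taken as a call.

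Alpha1-antitrypsin is a protease inhibitor that hepatocytes secrete in bulk into the blood. The Z form misfolds and is kept in the endoplasmic reticulum, whereas the M form is exported, so that both load the secretory pathway but only the mutant accumulates there. The liver also makes cholesterol, fatty acids, bile acids and heme, and the transcription of these pathways follows feeding, hormones and the time of day.

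Some arrays stood apart before any comparison. On the first principal component, which held 23.0% of the variance, the 3 Z off arrays lay between 18.4 and 19.5 and no other array above 10.8. The 3′ probe set of the 18S control ranged from 93.9 to 709.8 on the off arrays and from 226.6 to 1491.7 on the on arrays. In Z mice it lay apart by state (93.9 to 373 off, 914.2 to 1491.7 on), and in M mice it overlapped (568.2 to 709.8 off, 226.6 to 767.5 on). The beta-actin 3′ to 5′ ratio, a measure of RNA integrity, was 2.18 to 3.89 on the off arrays and 2.44 to 5.16 on the on arrays. Skeletal muscle markers summed to 567 and 1019 on M off replicates 1 and 3 and to at most 299.9 elsewhere. The hepatocyte genes Alb (albumin), Serpina1b and Serpina1c (mouse alpha1-antitrypsins) read 12407.3 or more on every array, with on minus off differences of 0.00, -0.01 and -0.05 on the log2 scale. Signals had medians of 38.8 to 47.2 per array, and the number of arrays limits the precision.

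In both lines, livers with the transgene on had more mRNA of the chemokine Cxcl1, the heme synthesis enzyme Alas1, the lipogenic regulator Thrsp, the receptor ligand Gas6, the kinase Sgk1 and the sterol enzyme Cyp51. They had less of the secreted serpin Serpina12, the vasopressin receptor Avpr1a, the phosphate transporter Slc17a1 and 1 probe set of the RNA-binding protein gene Hnrnpu. The on means of Slc17a1 (75.4), Avpr1a (79) and Hnrnpu (87.6) and the off means of Sgk1 (82.9) and Cxcl1 (94.7) were under 100. These probe sets thus passed the signal minimum only through the state in which they read higher. In all, 13 probe sets were called (0.184% of those tested), 7 of them higher (0.0988%) and 6 lower (0.0847%), including 2 probe sets of Thrsp and 2 lower ones without a gene symbol. The fit over both lines picks probe sets that shift alike in each, so agreement between lines among the calls is no separate support. The 3 on arrays lay apart from the 3 off arrays, in the same direction in each line, on all 13. That happened on 77 of the 7083 probe sets (1.09%), with 40 higher (0.565%) and 37 lower (0.522%), and 69 (0.974%) lay apart in opposite directions. The 6 on arrays lay apart from the 6 off arrays over both lines on 10 of the 13 and on 35 of all probe sets (0.494%), 21 higher (0.296%) and 14 lower (0.198%). Over all probe sets tested, 3449 (48.7%) had the same sign in both lines. At an unadjusted p under 0.05 there were 585 probe sets (8.26%), 277 higher (3.91%) and 308 lower (4.35%). Of these 576 had the same sign in both lines, which choosing by p in the fit over both lines also favours. With 1 probe set per gene, 6 of the 4689 genes tested were called higher and 2 lower, so a gene list without a call says little about its genes. Within single lines, limma called 3 probe sets in Z mice (0.0424%) and 7 in M mice (0.0988%) from the fit with 1 mean per group. The calls over both lines depended on single arrays: without Z off replicate 2 none passed (513 had an unadjusted p under 0.05), and without Z on replicate 3 there were 30. The count was 2, 3 and 5 without M off replicate 1, 2 or 3, and 4, 5 and 7 without M on replicate 1, 2 or 3. It was 6 without Z off replicate 3 and 5 without Z on replicate 1. With the actin ratio as a covariate, an alternative chosen after seeing the data, none passed in limma and 456 had an unadjusted p under 0.05. The part of RNA quality in the result was not tested beyond that.

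**Figure D1:**
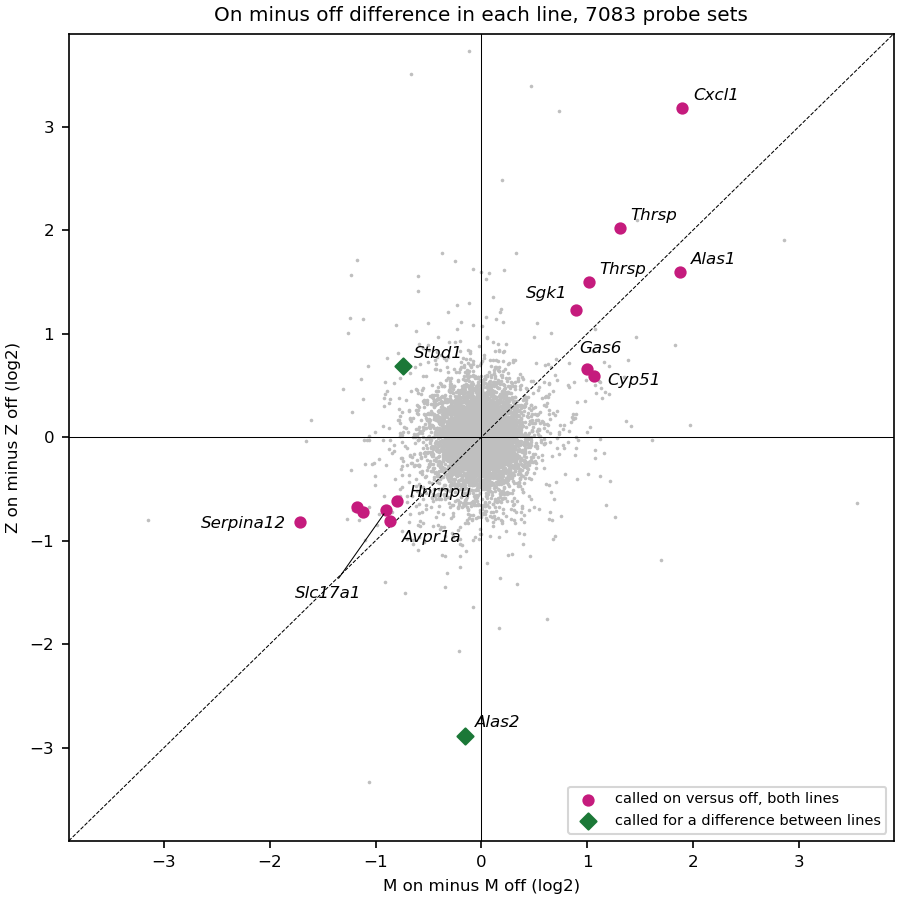
The on minus off difference of each of 7083 probe sets (grey points) in the M line (x axis, log2) and the Z line (y axis, log2), with the 13 called probe sets in magenta (the 2 without a symbol unlabelled) and the 2 called for a difference between lines in green. The 13 calls lie in the 2 quadrants of equal sign (dashed line: equal change), which their choice by the fit over both lines favours, while the bulk of points forms a round cloud at 0.

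Cxcl1, which attracts neutrophils, had the largest difference among the calls. In Z mice it read 51, 61.4 and 62.8 with the transgene off and 378.6, 389.4 and 988.5 with it on. In M mice it read 80.4, 86.1 and 226.6 off and 435.4, 598.5 and 314.3 on. The lowest on array was above the highest off array in each line and over both lines. Cxcl1 rose by 2.54 on the log2 scale, or 5.82-fold (SE 0.33, limma adjusted p = 0.0148), by 3.18 in Z mice and by 1.90 in M mice. Neutrophil markers, of which none of 10 on the array reached the mean signal of 100, summed to 158 to 311 on the on arrays and to 152 to 420 on the off arrays. Of the 9 NF-kappaB pathway and target genes tested, Cxcl1 was the only one called, 4 read higher and 5 lower, and the median difference was -0.02. Acute phase genes, which the liver makes in inflammation, had a median difference of 0.02, with 11 of 20 higher and none at an unadjusted p under 0.05. Within them Saa1 read 6737.2 on Z on replicate 3 and at most 1589.5 on the other arrays, so that array stood apart in this group.

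Alas1 makes the first and rate-limiting step of heme synthesis outside the erythroid lineage. It read 455 to 928.1 on the off arrays (median 691.1) and 1275.1 to 3469 on the on arrays (median 2516), so the 6 on arrays all lay above the 6 off arrays. Alas1 rose 3.34-fold, by 1.74 on the log2 scale (SE 0.24, limma adjusted p = 0.0148), with 1.60 in Z mice and 1.88 in M mice. No other gene of heme synthesis and iron handling was called: of 20 tested, 10 read higher and 10 lower, with a median of 0.02. Fech, Urod and Alad, later enzymes of the pathway, differed by 0.04, 0.05 and -0.06, and Cpox by -0.42 (limma adjusted p = 0.583). The erythroid isoenzyme Alas2 read 1118.8 to 1456.1 on the Z off arrays and 136.5 to 306.6 on the other 9 arrays, a difference of -2.88 in Z mice and -0.16 in M mice. Alas2 was not called over both lines (adjusted p = 0.155) but was called for the difference between lines (-2.73, SE 0.24, limma adjusted p = 0.000359). The 10 erythroid markers on the array, Alas2 included, summed to 1358 to 1884 on the Z off arrays and to 332 to 580 on the others. Alas2 made up most of the sum on the Z off arrays, so the sum largely repeats the Alas2 values. Over both lines 5 of the 10 markers read higher, with a median of 0.01. The part of erythroid cells in the Alas2 result was not tested. Cxcl1 and Alas1 kept their calls without each of the 12 arrays except Z off replicate 2, where both had an adjusted p of 0.0655.

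Gas6, the ligand of the Tyro3, Axl and Mertk receptor kinases, read 132.3 to 174.3 off (median 160.4) and 211.7 to 345.8 on (median 276.9). The 2 sets of 6 arrays did not overlap. Gas6 rose 1.78-fold, by 0.83 on the log2 scale (SE 0.12, limma adjusted p = 0.0169), with 0.66 in Z mice and 1.00 in M mice. Its call was lost without M off replicate 1 (adjusted p = 0.0515), M off replicate 2 (0.0591) or Z off replicate 2 (0.0655). Sgk1, a kinase gene induced by glucocorticoids and serum, read 65.1 to 109.6 off (median 80.2) and 119.7 to 307.4 on (median 162.9), again without overlap. Sgk1 rose by 1.06 (SE 0.19, limma adjusted p = 0.0454) and was called in 2 of the 12 omissions of 1 array. The other glucocorticoid-responsive genes were not called: Fkbp5 and Tat differed by -0.13 and -0.06, Tsc22d3 by -0.49, and over the 12 tested, Sgk1 included, 7 read higher and 5 lower.

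**Figure D2:**
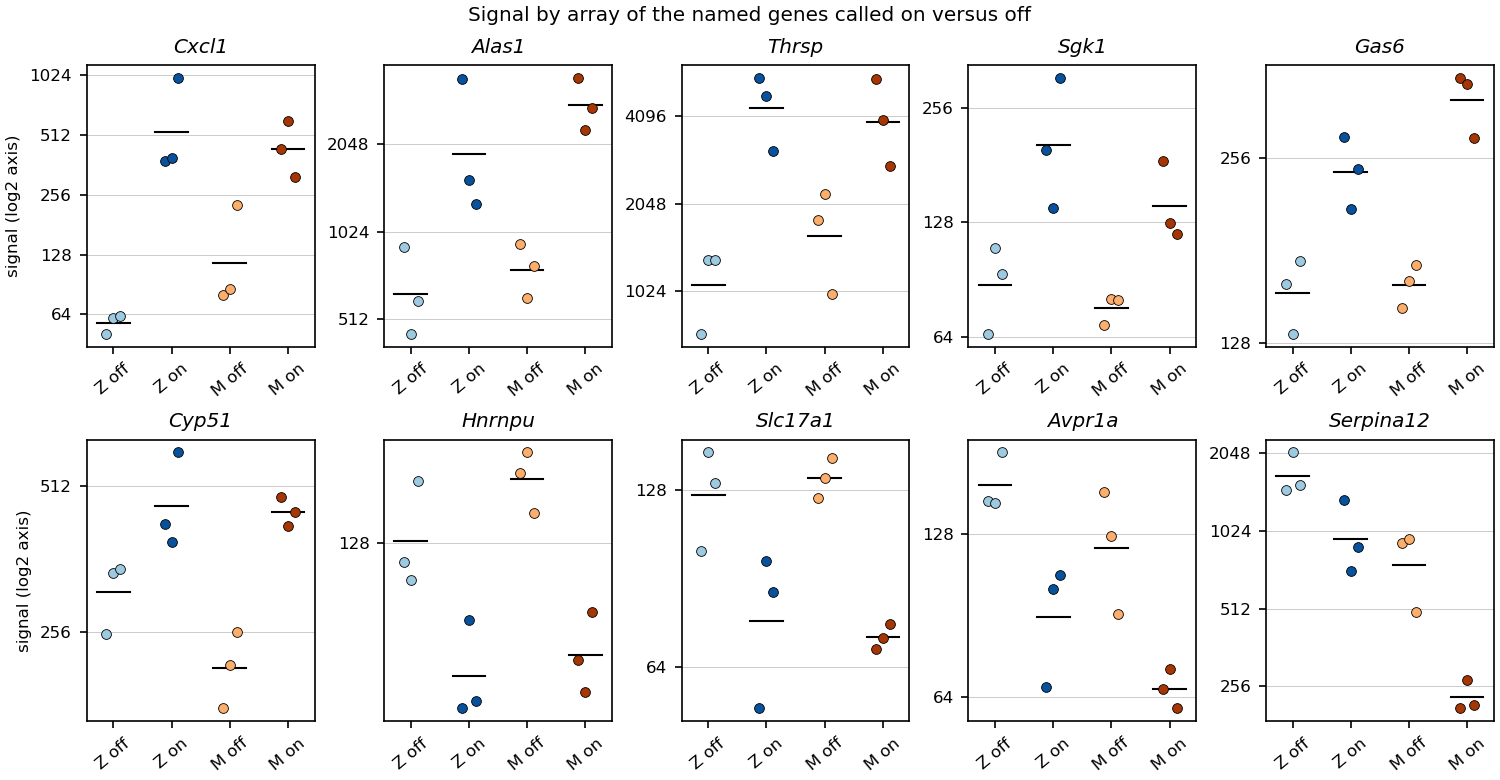
Signal of the 10 named genes called on versus off (log2 axis), 1 point per array in the groups Z off, Z on, M off and M on (n = 3 each), with the mean of the log2 values as a bar and Thrsp and Avpr1a shown by 1 probe set each. Within each line the on points lie on one side of the off points in every panel, and for Avpr1a and Serpina12 the off values of M mice reach down into the on values of Z mice.

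Thrsp, a regulator of lipid synthesis that responds to thyroid hormone and carbohydrate, was called on both of its probe sets. The first read 726.9, 1311.9 and 1304.9 in Z off and 5559, 4812.3 and 3107.8 in Z on. In M mice it read 1802.8, 2218.7 and 995.4 off and 5514.4, 3993.1 and 2767.3 on, and no on array was as low as any off array. Thrsp rose by 1.67 on the log2 scale, or 3.17-fold (SE 0.26, limma adjusted p = 0.0256), and by 1.26 on the brighter probe set (adjusted p = 0.0419). The fainter one was called in 7 of 12 omissions of 1 array and the brighter one in 2. Most genes of fatty acid synthesis also read higher, and more so in M than in Z mice, though none was called for the difference between lines. Of 15 genes tested, Thrsp included, 14 read higher over both lines together and 10 within both, with 7 at an unadjusted p under 0.05 and none lower at that level, where 8.51% of all 4689 genes had such a p and 48.3% read higher. The median difference of the list was 0.36, with 0.13 in Z and 0.59 in M mice, against -0.01 over all genes. It was 0.24 without M on replicate 1. Elovl6, which elongates saturated fatty acids, read 247.8 to 365.9 off and 313.6 to 939.1 on and differed by 0.81 (limma adjusted p = 0.147). Fasn, fatty acid synthase, differed by 0.15 in Z mice and 1.37 in M mice (0.76 over both, adjusted p = 0.207), and Scd1, the main desaturase, by -0.10 and 0.53. Srebf1 and Mlxipl, which encode the lipogenic transcription factors SREBP1 and ChREBP, differed by 0.16 and -0.28 and were not called.

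The cholesterol pathway read higher along most of its length. Of 17 enzymes tested, 16 had a higher mean with the transgene on, 14 of them in both lines, and 11 had an unadjusted p under 0.05, with none lower at that level. The median difference was 0.50, with 0.41 in Z mice and 0.78 in M mice. Cyp51, the lanosterol demethylase, was the only member called. It read 253.9, 338.2 and 345 in Z off and 427.2, 392.6 and 599.9 in Z on, and 178.7, 219.2 and 256.9 in M off and 485, 423.6 and 452.7 in M on. All 6 on arrays lay above all 6 off arrays. Cyp51 rose by 0.83, or 1.78-fold (SE 0.15, limma adjusted p = 0.0419), its other probe set differed by 0.46, and the call held in 1 of 12 omissions of 1 array. The next members by p were Idi1, which isomerises the isoprenoid building block (0.71, adjusted p = 0.0592), the sterol oxidase Msmo1 (0.94, adjusted p = 0.0771) and Hmgcs1, which makes the precursor of mevalonate (0.83, adjusted p = 0.0784). Hmgcs1 read 1696.5 to 3328.9 off and 2895.7 to 5695.7 on, with the groups apart in M mice and overlapping in Z mice. Sqle, Fdps and Fdft1, the enzymes from isoprenoids to squalene and its epoxide, differed by 0.95, 0.80 and 0.77 and were not called. Mvd, Hsd17b7 and Dhcr7 read lower with the transgene on in Z mice (-0.35, -0.23 and -0.04) and higher in M mice (0.34, 0.42 and 0.57).

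**Figure D3:**
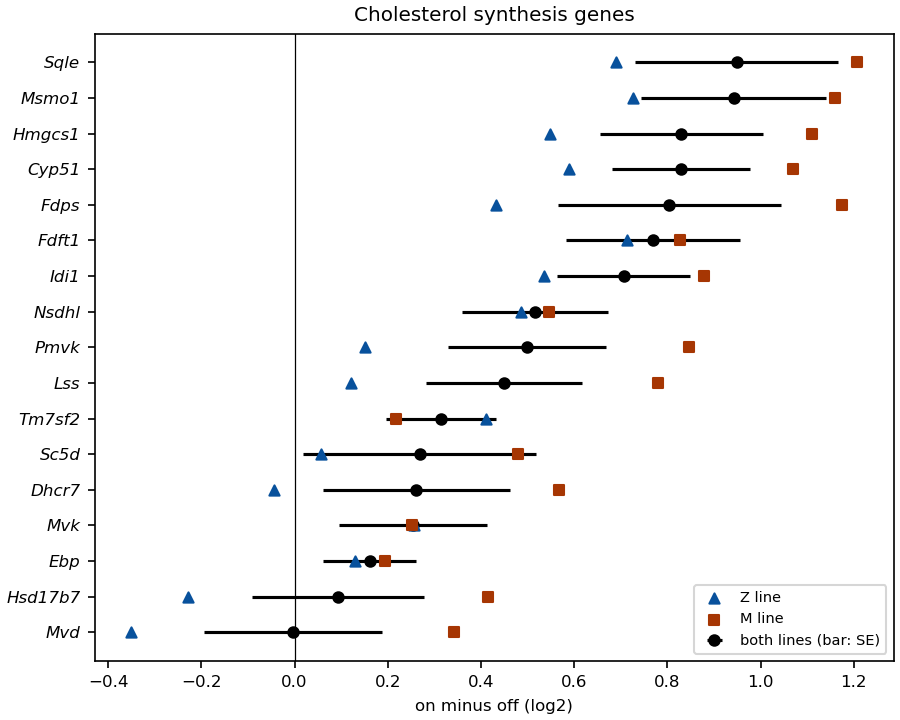
On minus off differences (log2, x axis) of the 17 cholesterol synthesis genes tested, over both lines (black, bar: SE) and within the Z line (blue triangles) and the M line (orange squares). The pooled values run from -0.00 for Mvd to 0.95 for Sqle, and the M value is the higher one for all but Tm7sf2 and Mvk.

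Cholesterol genes are known to be driven by SREBP2 at sterol regulatory elements together with NF-Y at CCAAT boxes, so the upstream sequences of 3 members are shown. They are the 250 bases before the annotated start in RefSeq (mouse build GRCm38.p6), 5′ to 3′ on the strand of the gene. Capitals mark a CCAAT box, CCAAT on either strand (ATTGG when reversed), or a relaxed sterol element, TCACNNCAC on either strand, and the 2 overlap in Msmo1. The Cyp51 window is chr5:4104698-4104947 on the minus strand, that of Hmgcs1 chr13:119690101-119690350 on the plus strand and that of Msmo1 chr8:64733579-64733828 on the minus strand.
Cyp51: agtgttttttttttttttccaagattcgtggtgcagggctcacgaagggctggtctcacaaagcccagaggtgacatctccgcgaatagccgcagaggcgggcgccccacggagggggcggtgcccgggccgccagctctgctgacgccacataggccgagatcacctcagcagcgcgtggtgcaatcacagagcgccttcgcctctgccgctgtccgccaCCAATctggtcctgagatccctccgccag
Hmgcs1: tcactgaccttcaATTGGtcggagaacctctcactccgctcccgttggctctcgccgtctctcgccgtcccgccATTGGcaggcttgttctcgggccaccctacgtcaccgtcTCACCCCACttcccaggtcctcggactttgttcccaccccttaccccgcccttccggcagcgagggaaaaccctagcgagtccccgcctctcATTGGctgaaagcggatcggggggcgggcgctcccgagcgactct
Msmo1: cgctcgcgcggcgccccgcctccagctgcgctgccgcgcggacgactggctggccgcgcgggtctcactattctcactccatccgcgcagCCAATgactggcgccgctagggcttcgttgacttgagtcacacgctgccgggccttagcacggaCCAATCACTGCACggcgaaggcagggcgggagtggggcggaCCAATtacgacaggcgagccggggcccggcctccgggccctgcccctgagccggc
The Cyp51 window held 1 CCAAT box and no exact match to the sterol pattern, and the windows of Hmgcs1 and Msmo1 held 3 CCAAT boxes and 1 sterol element each. The Cyp51 window did hold tcacctcag, which departs from the pattern only in its last base, so it may hold a sterol element that the pattern misses. A CCAAT box stood in a window of 14 of the 14 list members that had a promoter entry, against 37.5% of all 27025 genes and 41.3% of the 3896 genes tested here that had one. The sterol element stood in 4 of the 14 (Msmo1, Hmgcs1, Dhcr7 and Hsd17b7), against 3.63% of all genes and 3.82% of those tested, and the E-box CACGTG in 3 of the 14, against 6.86% and 10.7%. Idi1, the next member by p after Cyp51, held a CCAAT box but no exact sterol element and is not shown. The list is a pathway known to use both elements, so their shares describe the pathway and are no measure of the on minus off differences. A match is a description of the letters in the window, not of binding.

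The regulators and transporters of cholesterol did not differ the way the enzymes did. Srebf2, which encodes SREBP2, and Scap, which escorts it, differed by -0.10 and -0.05, and 9 of the 12 genes of uptake, efflux and sterol control read lower. Insig2, which retains the SREBP complex in the endoplasmic reticulum, read 1034.3 to 1858.6 off and 513.3 to 1415 on, a difference of -0.72 (limma adjusted p = 0.291). Cyp7a1, the rate-limiting enzyme from cholesterol to bile acids, came closest to a call of the named genes that missed it. It read 843.2, 733.6 and 790.6 in Z off and 2316.1, 1247.8 and 1078 in Z on, and 252.8, 430.6 and 357.5 in M off and 1443.7, 1642.9 and 743.2 in M on. The on arrays lay above the off arrays within each line, and only M on replicate 3 fell inside the range of the Z off arrays. The difference was 1.36 (SE 0.25, limma adjusted p = 0.054), 0.89 in Z and 1.83 in M mice, and without Z on replicate 3 it passed (1.51, adjusted p = 0.0202). Nr0b2, the nuclear receptor SHP that represses Cyp7a1, read 466.6 to 754.1 off and 169.4 to 434.6 on, with no overlap (-0.84, limma adjusted p = 0.273). Baat, which conjugates bile acids, read 755.5 to 1019.5 off and 561 to 754.2 on, also without overlap (-0.33, adjusted p = 0.335). Over the 20 bile acid genes 7 read higher and 13 lower, with a median of -0.07.

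**Figure D4:**
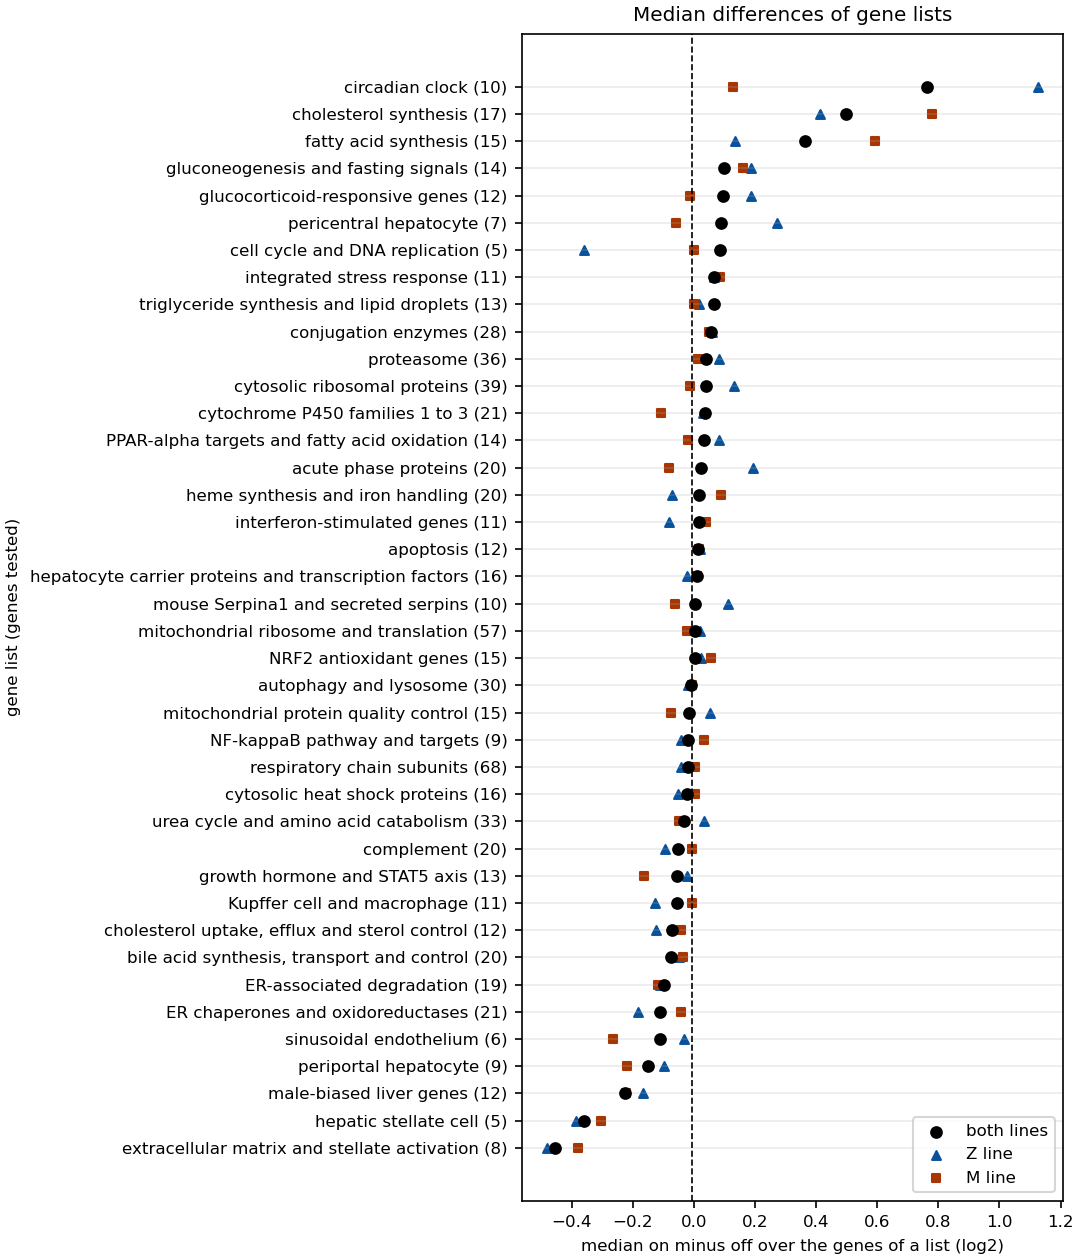
Median on minus off difference (log2, x axis) of each gene list with 5 or more genes tested (number in brackets), over both lines (black), in the Z line (blue triangles) and in the M line (orange squares), with the median of all genes as a dashed line. Cholesterol synthesis, with 0.41 and 0.78, and extracellular matrix, with -0.48 and -0.38, lie away from the dashed line in both lines, and the circadian list, with 1.13 and 0.13, mostly in one.

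Of the 6 lower calls, Serpina12, which encodes the secreted serpin vaspin, had the largest size. It read 1477.3, 2063.9 and 1544.2 in Z off and 1351.7, 714.7 and 884.8 in Z on, and 923.5, 955.7 and 494.8 in M off and 210.8, 272.2 and 217.4 in M on. The groups lay apart in each line but not over both, since M mice read lower throughout. Serpina12 fell by 1.27 on the log2 scale (SE 0.22, limma adjusted p = 0.0419), by 0.82 in Z mice and by 1.71 in M mice. The difference between lines had an unadjusted p of 0.0405 in limma, the smallest among the 13 calls, and the smallest adjusted one was 0.594. That does not show the 2 lines to respond alike. Avpr1a, the hepatic vasopressin receptor, read 90.9 to 180.8 off and 60.9 to 107.4 on, and fell by 0.84 (adjusted p = 0.0419), with -0.69 on its other probe set. Slc17a1, a sodium and phosphate cotransporter, read 100.6 to 148.1 off and 54.4 to 96.6 on without overlap, and fell by 0.80 (adjusted p = 0.0419). Each of these 3 genes was called in 3 of 12 omissions of 1 array. Hnrnpu fell by 0.70 on 1 dim probe set (113.7 to 170.1 off, 76 to 103 on, adjusted p = 0.0419), while its 4 other probe sets differed by -0.12 to 0.03. The 2 probe sets without a symbol both fell by 0.92 (adjusted p = 0.0419).

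Several further genes came near the threshold without passing it. Slc2a2, the glucose transporter of hepatocytes, read 1788.1 to 2278.5 off and 2558 to 3421 on (0.51, limma adjusted p = 0.0592). Gstm5, a glutathione transferase, read 163.9 to 232.3 off and 443.4 to 4092.8 on (2.38, adjusted p = 0.0592), with Z on replicate 3 and M on replicate 2 far above the other on arrays. Slc25a51, a mitochondrial NAD carrier, differed by 0.58 and by 0.20 on its other probe set. Among genes that read lower, Hopx, a small homeodomain protein, read 1035.4 to 1875 off and 653.7 to 1131.8 on (-0.66, adjusted p = 0.054). Trp53inp2, an autophagy regulator, differed by -0.60 (adjusted p = 0.054) and Ccng2, which encodes cyclin G2, by -0.98 (adjusted p = 0.0592). The chaperone Hsph1, the secretory pathway trafficking protein Tmed3, the nuclear receptor coactivator Pnrc1, the adaptor Grb7 and the ubiquitin-binding Ubxn1 differed by -0.57, -0.78, -0.85, -0.51 and -0.62, with adjusted p-values of 0.0592 to 0.101. Igfbp1, an insulin-repressed binding protein for growth factors, read 137.4 to 361.7 in Z off, 81.1 to 193.6 in Z on, 185.7 to 535.8 in M off and 17.3 to 54.3 in M on. Its difference of -1.97 (adjusted p = 0.133) was made of -0.80 in Z and -3.15 in M mice.

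The stress genes of the endoplasmic reticulum did not read higher with the transgene on. Of 21 chaperones and oxidoreductases tested, 4 read higher and 17 lower, with a median of -0.11. Only 1 had an unadjusted p under 0.05 (4.76%, against 8.51% of all genes). Hspa5, the main chaperone BiP, read 4247.2 to 5845.9 off and 3708.8 to 5090.3 on, with overlapping groups (-0.15, SE 0.12, limma adjusted p = 0.835). Dnajb9, a cochaperone of BiP, read 380.6 to 812 off and 334.1 to 648 on (-0.49, adjusted p = 0.24). Of 19 genes of ER-associated degradation 15 read lower, with a median of -0.10 and 4 at an unadjusted p under 0.05 (21.1%), all lower. Syvn1, the ubiquitin ligase HRD1, read 281.4 to 461.4 off and 216.9 to 295.1 on, and differed by -0.56 (adjusted p = 0.152), with -0.90 in Z and -0.22 in M mice. Of 11 genes listed for the integrated stress response, Atf6 of the unfolded protein response among them, 8 read higher, with a median of 0.07. At an unadjusted p under 0.05 in limma, Atf6 differed by 0.29, the kinase PERK gene Eif2ak3 by -0.46 and Atf5 by -0.50 (-0.98 in Z and -0.02 in M mice). The medians of the proteasome (36 genes) and of autophagy and lysosome genes (30) were 0.04 and -0.01. No gene of these 5 lists was called, where of all 4689 genes tested 6 were called higher and 2 lower.

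Genes of the extracellular matrix read lower with the transgene on in both lines. Of 8 tested, 7 read lower in Z and in M mice, 6 had an unadjusted p under 0.05 and none was called. The median was -0.46, with -0.48 in Z and -0.38 in M mice, and -0.30 over all 27 list genes on the array. Acta2, smooth muscle actin and a mark of activated stellate cells, read 101.4 to 182.7 off and 66.8 to 109.4 on (-0.63, limma adjusted p = 0.173). Col3a1, a fibrillar collagen, read 354.1 to 711.9 in Z off and 226.9 to 244.6 in Z on, but 549.3 to 749.8 in M off and 411.6 to 734.4 in M on (-0.75, adjusted p = 0.218). Sparc, a collagen-binding matrix protein, differed by -0.44 and the proteoglycan Dcn by -0.74. Markers of hepatic stellate cells, the main source of liver matrix, share Dcn with that list. All 5 tested read lower in both lines, and Ecm1, with the smallest p, read 283.5 to 369.7 off and 223.2 to 283.1 on without overlap (-0.36, adjusted p = 0.123). The 10 stellate markers on the array, of which 5 had a mean signal under 50, summed to 1851 to 2202 on the off arrays and to 1389 to 1824 on the on arrays. In bulk liver, fewer stellate cells and less RNA per cell cannot be told apart. Of 6 sinusoidal endothelial markers tested, 6 read lower over both lines together but only 3 within both, with a median of -0.11 (-0.03 in Z and -0.26 in M mice) and sums that overlapped (1519 to 2019 off, 1407 to 1960 on). The part of these cells, and of the muscle signal in M off, in the matrix result was not tested.

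Of the lists with 5 or more genes tested, the circadian list had the largest median difference, but it came from the Z line and split within it. Of 10 genes tested 7 read higher, 6 with an unadjusted p under 0.05, and the median was 0.76 over both lines, 1.13 in Z and 0.13 in M mice. Over all 18 list genes on the array, dim ones included, 9 read higher and the median was 0.07. Dbp, a clock output factor, read 23.8 to 107.1 in Z off, 1365, 1385.3 and 80.1 in Z on, 838.7 to 1103.5 in M off and 1094 to 1555.9 in M on. Replicate 3 of Z on thus lay with the Z off arrays for Dbp, and it did so for Usp2, Per3 and Tef as well. Bhlhe40 and Nfil3, repressors within the clock network, differed alike in both lines: by 1.04 and 1.07 for Bhlhe40 (1.06 over both, limma adjusted p = 0.133) and by -0.84 and -0.99 for Nfil3 (-0.92, adjusted p = 0.147). Without Z on replicate 3 both were called, with 1.29 (adjusted p = 0.0112) and -1.12 (0.018), and the list median was 0.86. Noct, a rhythmic gene, read 45.5 to 96.2 off and 97.6 to 654.6 on, with Z on replicate 3 lowest among the on arrays. It differed by 1.79 (adjusted p = 0.0583), and by 2.06 without that array (0.0112). No label used here states the hour at which the livers were taken, and its part in these values was not tested.

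**Figure D5:**
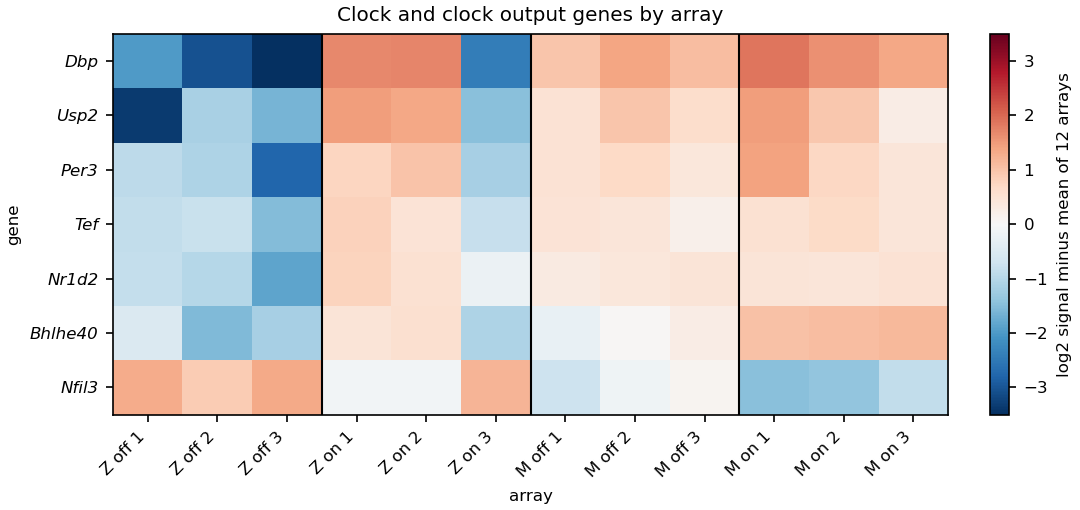
Log2 signal of 7 clock and clock output genes on each of the 12 arrays (columns), minus the mean of that gene over all arrays (colour scale, red higher, blue lower). The 3 Z off arrays and Z on replicate 3 share low Dbp, Usp2, Per3 and Tef and high Nfil3, while Bhlhe40 is higher on every M on array than on any M off array.

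Liver genes expressed more in males read lower on balance, with 9 of 12 below 0, 5 of them at an unadjusted p under 0.05, and a median of -0.23 (-0.12 over all 13 list genes on the array). Elovl3, a fatty acid elongase of male liver, read 2698.6 to 3953 in Z off and 643.4 to 2241.5 in Z on, and 606.1 to 1177.6 in M off and 373.5 to 565 in M on (-1.11, limma adjusted p = 0.152). Ugt2b38, a glucuronosyltransferase, differed by -1.15 (adjusted p = 0.188). In growth hormone signalling, which sets the male pattern, Stat5a differed by -0.47 and Ghr, the receptor, by -0.07. Of 14 genes of gluconeogenesis and fasting 10 read higher, and Pck1, its rate-limiting enzyme, differed by 1.61 in Z and 0.22 in M mice (0.91, adjusted p = 0.335). Fatty acid oxidation, the respiratory chain and the mitochondrial ribosome had medians of 0.03, -0.02 and 0.00 over 14, 68 and 57 genes, and none of their members was called.

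The difference of the on minus off effect between lines was called for 2 of 7083 probe sets in limma (0.0282%), Alas2 above and Stbd1. Stbd1, a glycogen-binding protein singled out after its values were seen, read 279.7 to 300 in Z off and 424.6 to 508.7 in Z on. In M mice it read 569.5 to 653.2 off and 322.8 to 428.4 on, so the groups lay apart in opposite directions. The difference between lines was 1.42 (SE 0.20, adjusted p = 0.0306). Without Z on replicate 3 the count was 11 and without Z off replicate 1 it was 4. Leaving out any 1 of M off replicates 2 and 3, M on replicates 2 and 3, Z off replicate 3 and Z on replicates 1 and 2 gave a count of 1.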

How the data were processed

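Total liver RNA of 12 mice was labelled and run on Affymetrix mouse arrays in 1 colour. As deposited, the table holds an intensity per probe set and array on a linear scale. Although RMA is named in the submitters' processing notes, the intensities range from 0 to 37251.7 with unequal medians per array, which RMA output would not show. All 12 arrays share a mean of 150.1 with 2% trimmed from each end, so they were scaled to a common trimmed mean, by software that no source used here gives.

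The 64 control probe sets of 22690 and those with a mean signal under 100 were left out, which kept 7083. Of these 92 had an off mean and 172 an on mean under 100, and 11 had a signal under 16 on some array. Signals were converted to log2 after a value of 0 was set to 0.1, with no further normalization. Gene symbols came from the platform annotation through RefSeq (0 changed): 6457 probe sets had 1 symbol, 315 several and 311 none, and only the first kind was named. limma 3.58.1 (R 4.3.3, lmFit and eBayes, two-sided) fitted state and line over all 12 arrays, with Benjamini and Hochberg adjustment over 7083. Differences within a line and between lines came from 1 mean per group. P-values measure the spread between these samples.

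The comparison, its members and the 50 gene lists (37 of pathways, 13 of cell markers) were chosen with earlier results of these data known. Lists used the probe set of highest mean of each gene and are described by counts and medians, with no test. Genes were named by rule: the 12 of smallest p in each direction, and up to 3 members of each list by p among those with an unadjusted p under 0.05. Further list members, probe sets without a symbol and Stbd1 were added after their values were seen.

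On simulated arrays 100 probe sets of each size were changed among 7083. The fit over both lines recovered 43% of changes of 0.5 and 94% of changes of 1 (log2), with 4 false calls. In the livers 13 probe sets were called. Of named genes that differed by more than 1, Cxcl1, Alas1, Thrsp, Serpina12 and Sgk1 were called. Gstm5 (2.38), Ndufs5 (-2.20), Igfbp1 (-1.97) and Noct (1.79) were among those not called. The share of real changes recovered in the livers was not tested. The 19 alternatives covered the signal minimum, normalization, low signals, the variance model, covariates, a replicate block, probe set choice, a minimum fold and single lines, and each of the 12 arrays was left out in turn. Promoter windows came from RefSeq, for 14 of the 17 cholesterol genes tested.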

Additional observations from a re-analysis of the deposited data

Results flagged for a closer look

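Among the named genes, 182 sets of 6 on or 6 off arrays were checked for an array far from the rest. Chance alone marks about 1 set in 20, and the 10 sets found are close to that share. Of these, 4 concern Z on replicate 3: it read 163.4 for Bhlhe40 and 464.1 for Nr1d2 (next lowest on arrays 466.8 and 716.6), 770.3 for the mitochondrial protease subunit Clpx (next highest 288.4) and 1530.7 for Gpam, which starts glycerolipid synthesis (next lowest 1946.5). Ndufs5, a subunit of respiratory complex I, read 587.5 on M on replicate 3, where the other on arrays reached at most 147.6, and 144.5 on M off replicate 3, where the other off arrays read at least 658.7. Cxcl1 read 226.6 on M off replicate 3, above the other off arrays (at most 86.1) and still below every on array. Gpam read 1227.8 on Z off replicate 1 (next lowest 1598.6), the TNF receptor gene Tnfrsf1a 535.1 on M off replicate 2 (next highest 346.9) and the HDL receptor gene Scarb1 653.1 on Z off replicate 3 (next lowest 831.5).

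The on minus off effect differed between lines by the test of the difference itself for 2 genes. On the log2 scale, Z minus M, it was -2.73 for Alas2 and 1.42 for Stbd1.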

How the results depend on the processing

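Of 13 calls, counts moved by over 1.5 times under several settings. With all probe sets and no minimum signal limma called 1 higher (Gli2) and 0 lower, with 1298 at an unadjusted p under 0.05. With a minimum of 50 it called 8, 2 of them lower. Without a line term there were 4, all higher and 0 lower, with a gene's probe sets averaged 3 lower, and in a test against a 1.2-fold change 2, both higher (0 lower). The Z line alone gave 4 (1 higher, 3 lower) and the M line alone 6 (1 lower). Of alternatives chosen after seeing the data, the actin ratio as a covariate gave 0, with 0 in each direction and 456 at an unadjusted p under 0.05, and leaving out the 2 M off arrays with muscle signal gave 1, higher (Cxcl1), and 0 lower. Leaving out 1 array gave 0 to 30 calls, 0 to 14 higher and 0 to 18 lower, and 1 to 11 for the difference between lines. That difference gave 0 calls over all probe sets (1172 at an unadjusted p under 0.05). The probe sets apart in both lines numbered 40 higher and 37 lower, and 87 and 94 with no minimum signal, where more were tested. Except for that larger number and the smaller number of arrays in single lines and omissions, the cause was not tested.

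Medians were followed over the settings only for the lists named in this paragraph. Among the other lists, some medians near 0 had unlike signs in the 2 lines, such as acute phase genes (0.19 in Z and -0.08 in M mice). The medians followed, which covered the same listed genes in the setting with no minimum signal, kept their sign in every setting run. Those that moved by more than the spread were fatty acid synthesis with the Z line (0.13) or M line alone (0.59), cholesterol synthesis (0.78) and the circadian clock (0.13) with the M line alone, and ER-associated degradation with the actin ratio as a covariate (-0.18). Over omissions of 1 array the medians were 0.40 to 0.59 for cholesterol synthesis, 0.24 to 0.41 for fatty acid synthesis, 0.57 to 0.86 for the clock, -0.52 to -0.40 for the matrix and -0.38 to -0.30 for stellate markers. They were -0.16 to -0.08 for ER chaperones, -0.14 to -0.07 for ER-associated degradation and -0.28 to -0.18 for male-biased genes.

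Among named genes 2 turned their sign: Gpam with its probe sets averaged (-0.11) and Osgin1 with the M line alone (0.16). Of the other values of named genes over all settings, 2569 kept their side of the threshold, 166 lost a call and 58 gained one. Only genes called in the main fit could lose a call, and most of the 2569 values belong to genes not called there. Cxcl1 kept its call in 16 of 19 alternatives and 11 of 12 omissions of 1 array, and Avpr1a in 5 of 17 and 3 of 12.

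Replicate numbers were not taken to pair the samples. Deviations of same-numbered arrays correlated at -0.16 to 0.21 over 18 pairs (median 0.04) and those of differently numbered arrays at -0.24 to 0.24 over 36 (median -0.02). In each kind 4 pairs were over 0.1, and 6 of 12 arrays correlated best with their own number. These values do not settle whether a weak pairing is present. With a replicate block there were 6 calls, 4 higher and 2 lower. Background and detection calls were not used here, so how far dim signals lay above background is unknown.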
